A study of Mus musculus with 22 samples.

Results

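The 10 amino acid transporter genes described here in mouse pancreatic islets are Slc38a1, Slc38a2, Slc38a3, Slc38a4 and Slc38a5 of the SLC38 family, Slc7a2, Slc7a5, Slc7a8 and Slc7a11 of the SLC7 family, and Slc3a2. They were found by their symbols and make up 10 of the 57010 gene rows of the expression table. They are also 10 of a wider list of 54 amino acid transporters, which includes lysosomal and vesicular carriers. The set of 10 was put together with earlier results of these data in view, in which Slc38a5 stood out for its difference between genotypes on one background (Mixed). Its values in the comparisons that use Mixed animals are therefore given as a description, without a test. Of the 10 genes, 7 reached a TPM (a transcript level scaled for transcript length and to a fixed total per library) of at least 1 in at least 5 samples and were tested. The other 3, Slc38a1, Slc38a3 and Slc7a11, stayed below that limit.

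The libraries held polyadenylated RNA from the islets of male mice aged 5.5 weeks, with 1 animal per library and 22 animals in all. Wild type (WT) mice were set beside mice heterozygous (Het) for the S64F change in MAFA, a transcription factor of beta cells. Each genotype was sampled on a background labelled C57 and on one labelled Mixed, whose strains the labels do not name. The WT groups held 5 mice each and the Het groups 6 mice each.

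The SLC38 proteins are sodium-coupled carriers of glutamine, alanine and other small neutral amino acids. The light chains Slc7a5, Slc7a8 and Slc7a11 reach the cell surface only when bound to the heavy chain Slc3a2, and exchange one amino acid for another, whereas Slc7a2 carries arginine and lysine without it. Islet cells sense amino acids: arginine and leucine act on insulin release, and alpha cells, the source of glucagon, respond to several amino acids. In mice, Slc38a5 is known as a transporter that alpha cells switch on when circulating amino acids are high.

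The 2 promoters printed here belong to the tested member with the largest log2(TPM + 1) difference between genotypes and to the one whose window held matches to a searched motif. Windows reaching from 250 bases before to 50 bases after the start were found for 6 of the 10 genes, Slc38a5, Slc38a2, Slc38a4, Slc7a8, Slc7a11 and Slc3a2, in RefSeq on build GRCm38.p6. The 250 upstream bases of Slc38a5 lie at chrX:8271131-8271380 on the plus strand, and those of Slc7a11 at chr3:50443614-50443863 on the minus strand. Each runs 5′ to 3′ in lower case, with capitals for matches to the C/EBP-ATF response element.
Slc38a5: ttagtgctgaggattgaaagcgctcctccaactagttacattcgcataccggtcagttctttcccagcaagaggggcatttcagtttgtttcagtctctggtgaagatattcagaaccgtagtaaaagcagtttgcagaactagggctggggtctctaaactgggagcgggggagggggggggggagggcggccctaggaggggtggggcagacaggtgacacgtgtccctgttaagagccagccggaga
Slc7a11: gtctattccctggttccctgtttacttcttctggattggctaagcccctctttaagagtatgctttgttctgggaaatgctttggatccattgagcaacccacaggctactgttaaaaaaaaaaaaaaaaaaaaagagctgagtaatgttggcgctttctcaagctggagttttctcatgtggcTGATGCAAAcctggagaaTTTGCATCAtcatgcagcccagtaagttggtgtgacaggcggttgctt
The motifs searched on both strands were TGCTGAC, the core of the MAF recognition site, and TGATGNAAN, the C/EBP-ATF response element, through which the amino acid starvation factor ATF4 acts. TGCTGAC had 0 matches in the windows of the 6 genes, against 4.67% of 32851 promoters of the same length that held one. Other forms of the MAF site were not searched, so these windows may hold some. The printed Slc38a5 sequence, for example, holds tgctgag, which differs from TGCTGAC in its last letter. The response element matched only in Slc7a11, at 2 places that start 66 and 48 bases before the start site, on opposite strands and without overlap, against 3.95% of all promoters with at least one match. A match is a description of letters, and these windows say nothing of more distant sites.

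Depth per library is not recoverable from TPM and is unknown, so no counting error can be attached to a level. Mafa itself averaged 440.6 ± 87.6 TPM (SD, n = 5) in C57 WT and 116.7 ± 23.2 (n = 6) in C57 Het, and 597.7 ± 143 (n = 5) in Mixed WT and 151.6 ± 37.1 (n = 6) in Mixed Het. The 9 beta cell markers summed to 370500 to 450400 TPM in C57 WT and 324000 to 379400 in C57 Het, which overlapped. On Mixed they summed to 402200 to 479800 in WT and 250800 to 342800 in Het, which did not overlap. Of these markers 3 were called lower and 1 higher in Het on C57, and 6 lower on Mixed. No gene of the 10 cell type marker lists was at 0 in every animal. The make-up of the RNA differed between genotypes. All 7 alpha cell markers were higher in Het mice on both backgrounds, and their summed level ran from 19100 to 57520 TPM in C57 WT and from 71480 to 117500 in C57 Het. On Mixed it ran from 15860 to 27620 in WT and from 65500 to 107400 in Het. All 4 delta cell markers were called higher in Het on both backgrounds. Of the 9 acinar markers, 8 were called higher in Het on C57 and 1 on Mixed, and of the 5 tested ductal markers 3 and 5. Of the tested immune markers, 2 of 8 were called lower on C57 and 7 of 8 higher on Mixed, and of the mesenchymal ones 1 of 7 lower on C57 and 5 of 7 higher on Mixed. Of the 6 tested endothelial markers, 3 were called lower on C57 and 0 on Mixed. Of the 4 Schwann cell markers, 0 were called on C57 and 2 higher on Mixed, and of the 2 PP cell markers (Ppy and Pyy) 0 and 1. Over all genes, 38.0% were called on C57, 26.4% higher. On Mixed 44.1% were called, 30.7% higher and 13.5% lower. In whole islets, fewer cells of a type and less RNA per cell cannot be told apart, and the part of these markers in any result below was not tested beyond the values given.

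Slc38a5, which carries glutamine, asparagine and serine, had the largest difference between genotypes of the 7 tested members on the log2(TPM + 1) scale. In C57 WT it measured 34.8, 19.5, 19.4, 13.5 and 19.7 TPM in the 5 animals. In C57 Het the lowest, median and highest of 6 animals were 106.6, 137.6 and 204.4 TPM. Every C57 Het animal lay above every C57 WT animal, and the Het mean of 145.9 ± 37.5 TPM (SD, n = 6) was 6.83 times the WT mean of 21.4 ± 7.97 (n = 5). On that scale, used for all differences below, Slc38a5 rose by 2.74 (SE 0.206), with a limma adjusted p of 7.01e-09. It ranked 8 from the top of the 16756 genes tested in that comparison.

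On the Mixed background the separation of Slc38a5 was wider. Mixed WT animals measured 15.4, 21.1, 14.2, 18.2 and 26.6 TPM. Mixed Het animals had a lowest, median and highest level of 178.5, 232.1 and 305.2 TPM. No Mixed Het animal came near a WT animal: the Het mean of 230.1 ± 48.2 TPM (n = 6) was 12.1 times the WT mean of 19.1 ± 4.98 (n = 5), a log2 difference of 3.53 (SE 0.206). The rank of this difference was 4 from the top of all genes tested. The genotype difference on Mixed exceeded that on C57 by 0.79 (SE 0.292) on the log2 scale.

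Between backgrounds, the WT levels of Slc38a5 overlapped, with a log2 difference of -0.13 (SE 0.215) for Mixed against C57. The Het levels overlapped too, with a Mixed mean 1.58 times the C57 mean and a log2 difference of 0.67 (SE 0.197). From low to high, the group means ran from Mixed WT over C57 WT and C57 Het to Mixed Het, in which the neighbours within a genotype overlapped and the step between genotypes was clear of both.

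**Figure D1:**
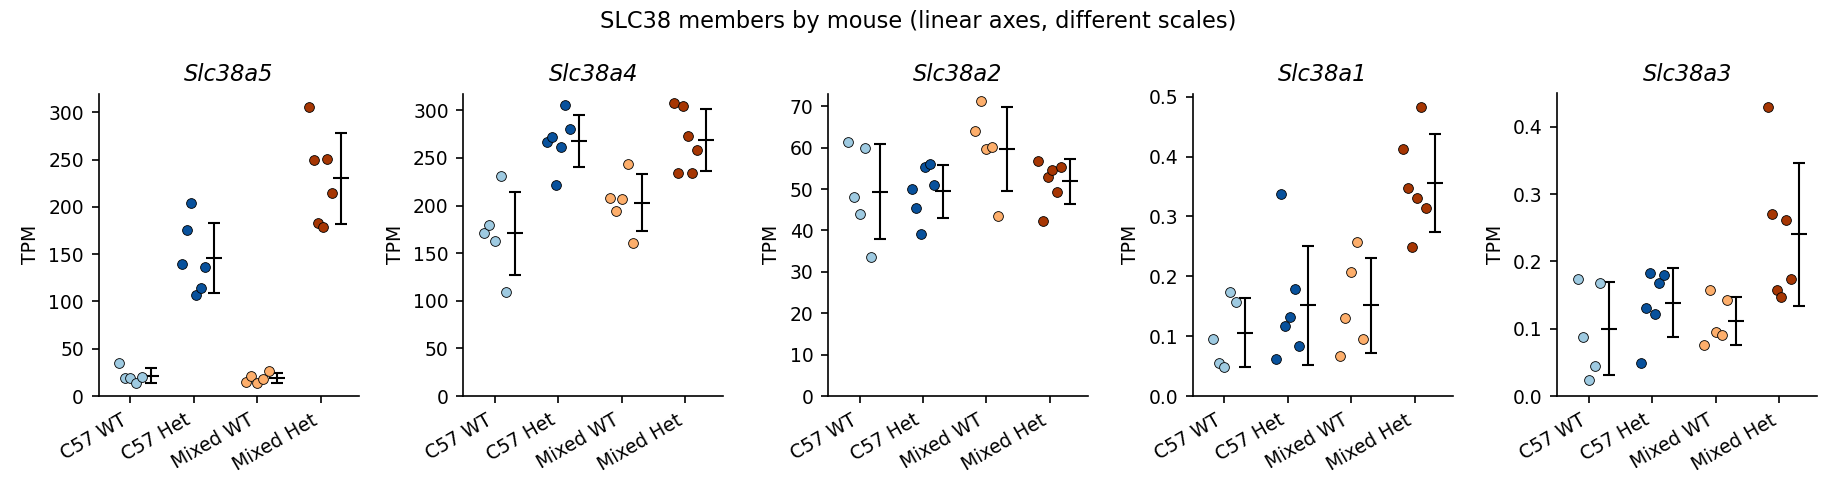
TPM of the 5 SLC38 members in each of the 22 mice, on linear axes with a different scale for each gene. Points are animals and bars are the group mean with SD; Slc38a5 shows 2 separate bands by genotype, Slc38a4 sits high in all groups, Slc38a2 overlaps between genotypes, and Slc38a1 and Slc38a3 stay under 0.5 TPM.

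The share of Slc38a5 within its family differed accordingly. Slc38a5 made up 9.20% ± 3.47 (SD, n = 5) of the summed TPM of Slc38a1 to Slc38a5 in C57 WT and 31.4% ± 7.42 (n = 6) in C57 Het. On Mixed these shares were 6.97% ± 2.68 (n = 5) and 41.6% ± 5.97 (n = 6). The sum itself averaged 241.8 ± 52.8 TPM in WT and 463.7 ± 23.3 in Het mice on C57, and 282.1 ± 32.7 and 551.3 ± 59.6 on Mixed. Among the 54 listed transporters, ordered by mean TPM, Slc38a5 stood at place 14 in C57 WT and 15 in Mixed WT, but at place 5 in C57 Het and 2 in Mixed Het.

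Slc38a4, a carrier of neutral and also of some cationic amino acids, had the highest mean TPM of the 54 listed transporters in all 4 groups. C57 WT animals measured 170.7, 179.9, 163.1, 231.4 and 109.2 TPM, and C57 Het animals 221.8 at the lowest, 269.6 at the median and 306.1 at the highest. The highest WT animal lay within the Het range, and the others lay below it. Slc38a4 rose by 0.68 (SE 0.138; limma adjusted p 0.000714) in C57 Het. Mixed WT animals measured 208.1, 194.8, 207.1, 244.1 and 161.1 TPM, against a lowest, median and highest of 234.2, 265.7 and 307.8 in Mixed Het. Again 1 WT animal lay within the Het range, and Slc38a4 rose by 0.41 (SE 0.138; limma adjusted p 0.0209). That call ended with median-of-ratios scaling (0.27, adjusted p 0.0764), with quantile normalization (0.25, adjusted p 0.129), with a total that left out the most abundant genes (0.28, adjusted p 0.0703) and without Mixed WT replicate 5 (0.33, adjusted p 0.0672). The interaction, which is the Mixed difference less the C57 difference, was -0.27 (limma adjusted p 0.389).

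Slc38a2, the system A carrier that many cell types raise when short of amino acids, showed no called difference between genotypes. Its levels were 61.4, 48.0, 44.0, 60.0 and 33.6 TPM in C57 WT and 39.2, 50.4 and 56.0 (lowest, median, highest) in C57 Het. They were 63.9, 71.2, 59.8, 60.2 and 43.5 TPM in Mixed WT and 42.2, 53.7 and 56.8 in Mixed Het. The ranges overlapped on both backgrounds. The log2 difference was 0.02 (SE 0.138; limma adjusted p 0.91) on C57, a sign that turned with median-of-ratios scaling (-0.07), quantile normalization (-0.10) and a total without the most abundant genes (-0.09). On Mixed it was -0.19 (SE 0.138; limma adjusted p 0.279), which became a called fall with median-of-ratios scaling (-0.32, adjusted p 0.023) and with the total without the most abundant genes (-0.31, adjusted p 0.0374).

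Slc38a1, another system A carrier, was scarce. Its mean was 0.106 ± 0.0576 TPM in C57 WT (n = 5) and 0.152 ± 0.0996 in C57 Het (n = 6), then 0.151 ± 0.0791 in Mixed WT (n = 5) and 0.356 ± 0.0816 in Mixed Het (n = 6). Mixed Het animals ran from 0.249 to 0.484 TPM and Mixed WT animals from 0.0668 to 0.257, so that the ranges met at their edges. Slc38a3, the glutamine carrier best known from liver and brain, was as scarce, with group means from 0.0997 TPM in C57 WT to 0.24 in Mixed Het. In a fit with no filter on low values, both passed the threshold for Het against WT on Mixed, Slc38a1 by 0.24 (SE 0.0576; limma adjusted p 0.00501) and Slc38a3 by 0.15 (SE 0.0512; limma adjusted p 0.0362). Neither passed on C57, with adjusted p of 0.61 and 0.593 in the same limma fit.

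Slc3a2, the heavy chain shared by the exchangers, measured 72.6, 104.8, 81.5, 88.0 and 77.3 TPM in C57 WT. In C57 Het its lowest, median and highest levels were 115.1, 127.8 and 129.8 TPM. The 2 groups did not overlap, and Slc3a2 rose by 0.57 (SE 0.089; limma adjusted p 6.17e-05), from a mean of 84.8 ± 12.5 to 125.3 ± 5.62 TPM. Mixed WT animals measured 106.9, 116.2, 113.3, 123.6 and 98.4 TPM, close to the Mixed Het range of 108.7 to 146.7. The difference there, 0.17, had a limma adjusted p of 0.123. The interaction, -0.40 (SE 0.126), missed the threshold with a limma adjusted p of 0.0569. It passed with median-of-ratios scaling (p 0.0431), quantile normalization (p 0.0282), a total without the most abundant genes (p 0.0384) and sample weights (p 0.0198), and without C57 WT replicate 2 (p 0.0154), Mixed WT replicate 5 (p 0.0329), Mixed Het replicate 1 (p 0.0439) or Mixed Het replicate 3 (p 0.0288), all adjusted p from limma. In WT mice Slc3a2 was higher on Mixed than on C57 by 0.40 (SE 0.093; limma adjusted p 0.00719), with overlapping ranges, a call that ended when only WT samples were fitted (adjusted p 0.0536).

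Slc7a5, the leucine and glutamine exchanger also called LAT1, differed between genotypes in opposite directions on the 2 backgrounds. C57 WT animals measured 35, 43.9, 39.4, 39.6 and 31.2 TPM, and C57 Het animals 54.2 at the lowest, 60.1 at the median and 65.7 at the highest. The groups were apart, and Slc7a5 rose by 0.65 (SE 0.105; limma adjusted p 8.23e-05). Mixed WT animals measured 76.1, 69.7, 73.6, 52.8 and 65.1 TPM, above all C57 WT animals, and Mixed Het animals ran from 44.5 over a median of 56.6 to 63.3. Here the ranges overlapped and Slc7a5 fell by 0.29 on the log2 scale (SE 0.105; limma adjusted p 0.03). That fall lost its call with no filter on low values (adjusted p 0.0557), in a fit of the Mixed samples alone (adjusted p 0.0597) and, with adjusted p from 0.059 to 0.0825, without Mixed WT replicate 1, 2 or 3 or Mixed Het replicate 2 or 5.

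The interaction for Slc7a5 was -0.94 (SE 0.149; limma adjusted p 0.00133), and it passed the threshold in every alternative run, including the one with the alpha cell score as a covariate (-0.96, adjusted p 0.0114). Between backgrounds, Slc7a5 was higher in Mixed WT than in C57 WT by 0.82 (SE 0.11; limma adjusted p 5.39e-05), with no overlap and a ratio of means of 1.78. The Het groups differed by -0.12, with a limma adjusted p of 0.422, which became a called fall with sample weights (-0.22, adjusted p 0.0313).

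Slc7a8, or LAT2, is the broader of these neutral amino acid exchangers. It measured 76.9, 93.2, 74.0, 76.8 and 55.1 TPM in C57 WT and 92.0, 114.4 and 121.8 (lowest, median, highest) in C57 Het. Only the highest WT animal reached the lowest Het animal, and Slc7a8 rose by 0.58 (SE 0.141; limma adjusted p 0.003). In Mixed WT it measured 79.1, 86.8, 54.7, 51.7 and 81.4 TPM, and in Mixed Het 77.9, 84.0 and 114.8. Those ranges overlapped widely. The rise on Mixed, 0.36 (limma adjusted p 0.0439), lay at the threshold and ended in most alternatives, such as median-of-ratios scaling (0.23, adjusted p 0.13), the acinar score as a covariate (0.30, adjusted p 0.146) and sample weights (0.19, adjusted p 0.198). It also ended without Mixed WT replicate 3 (adjusted p 0.139) or 4 (0.157), without Mixed Het replicate 1 (0.108), 3 (0.0818), 5 (0.0525) or 6 (0.0517), and without C57 WT replicate 3 (0.05) or C57 Het replicate 4 (0.0504) or 6 (0.0509).

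**Figure D2:**
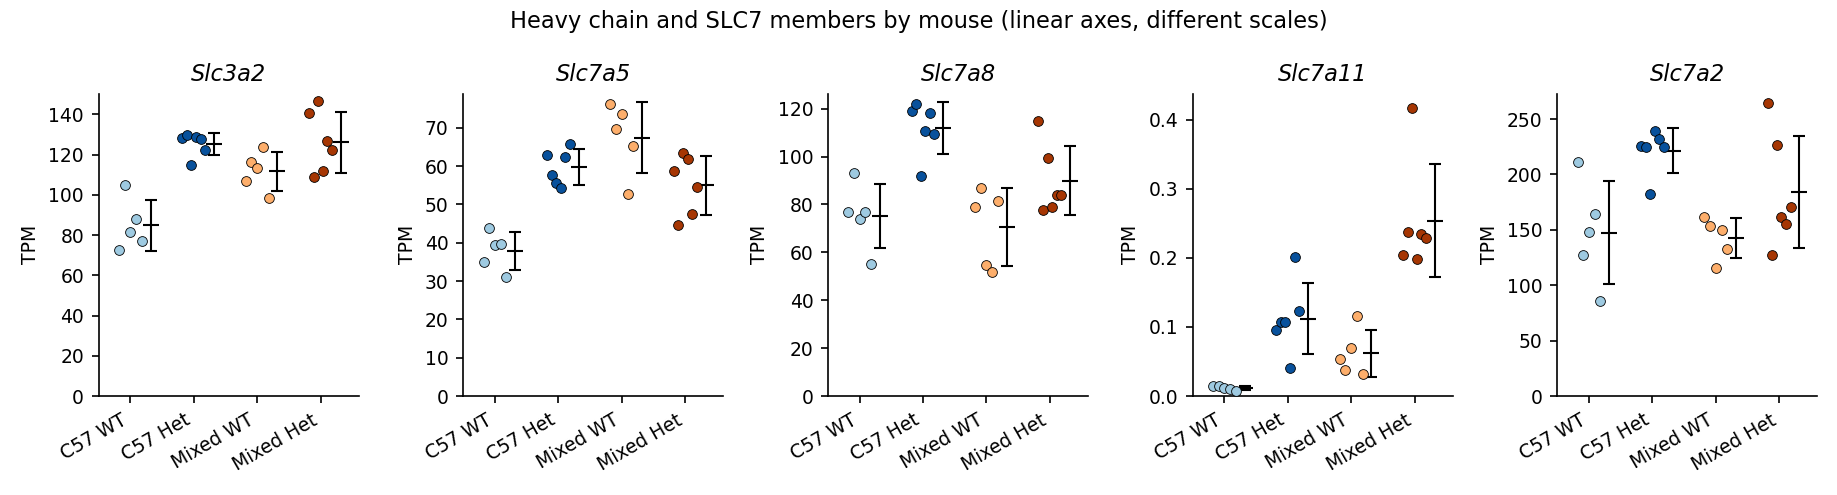
TPM of Slc3a2 and the 4 SLC7 members in each of the 22 mice, on linear axes with a different scale for each gene. Points are animals and bars are the group mean with SD; Slc3a2 and Slc7a5 are separate by genotype on C57 only, and Slc7a11 is separate on both backgrounds at levels under 0.5 TPM.

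Since the light chains need Slc3a2, their summed level was set beside it. The summed TPM of Slc7a5, Slc7a6, Slc7a7, Slc7a8, Slc7a10 and Slc7a11 was divided by that of Slc3a2. This ratio was 1.52 ± 0.196 (SD, n = 5) in C57 WT and 1.51 ± 0.0785 (n = 6) in C57 Het. On Mixed it was 1.39 ± 0.277 (n = 5) in WT and 1.31 ± 0.082 (n = 6) in Het. Het and WT differed by less than the spread of these ratios on each background. The C57 Het animals, from 1.41 to 1.58, lay higher than most Mixed Het animals, from 1.21 to 1.42, with a slight overlap. The make-up of the light chains moved more: Slc7a8 over Slc7a5 was 1.98 ± 0.177 in C57 WT, 1.88 ± 0.187 in C57 Het, 1.05 ± 0.211 in Mixed WT and 1.64 ± 0.236 in Mixed Het. The Mixed WT animals ran from 0.743 to 1.25 on that ratio, below all Mixed Het animals, which ran from 1.28 to 1.96.

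Slc7a2, the arginine and lysine carrier also called CAT2, was among the 4 most abundant of the listed transporters in each group. C57 WT animals measured 211.4, 127.0, 148.4, 164.3 and 85.8 TPM, and C57 Het animals 182.4, 225.4 and 239.6 (lowest, median, highest). One WT animal lay within the Het range. Slc7a2 rose by 0.64 (SE 0.182; limma adjusted p 0.00872) in C57 Het. In Mixed WT it measured 161.3, 153.7, 115.5, 149.6 and 132.9 TPM, inside or near the Mixed Het range of 127.2 to 264.1, and the difference of 0.33 had a limma adjusted p of 0.144.

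Slc7a11, the cystine and glutamate exchanger that feeds glutathione synthesis, was present at a very low level. C57 WT animals measured 0.0147, 0.0151, 0.0119, 0.0103 and 0.00707 TPM, and C57 Het animals 0.0403, 0.107 and 0.201 (lowest, median, highest). Mixed WT animals measured 0.0542, 0.0374, 0.0698, 0.116 and 0.0317 TPM, and Mixed Het animals 0.199, 0.232 and 0.417. Het and WT did not overlap on either background, and all Mixed WT animals lay above all C57 WT animals. The Het mean was 9.50 times the WT mean on C57 and 4.10 times on Mixed, and the Mixed WT mean was 5.24 times that of C57 WT. With no filter on low values, the log2(TPM + 1) difference, which understates such low levels, was 0.14 (SE 0.0374; limma adjusted p 0.0159) on C57 and 0.24 (SE 0.0374; limma adjusted p 9.66e-05) on Mixed. For Mixed WT against C57 WT the same fit gave 0.069 (SE 0.039; limma adjusted p 0.393), which was not called. How many reads stand behind these levels is unknown.

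Counted together, 6 of the 7 tested members rose in C57 Het, Slc38a2 being the exception, against 38.0% of all 16756 genes called in either direction and 26.4% called higher. The all-gene share includes many genes at lower levels than these 7. With a filter at a mean TPM of at least 5, which all 7 pass, 3831 of 10658 genes were called higher on C57 and 1084 lower. On Mixed, Slc38a4 and Slc7a8 were called higher and Slc7a5 lower, where 44.1% of all genes were called, 30.7% higher and 13.5% lower. Slc38a5 makes it 3 higher among the 7, but it was chosen for that difference and nothing is read from its place in the count. The median log2 difference over the 7 was 0.64 on C57 and 0.33 on Mixed, beside 0.083 and 0.10 over all genes. The Mixed median includes Slc38a5, chosen for its difference there, so nothing is read from it. Median-of-ratios scaling moved the median of all genes to 0.0052 on C57 and -0.010 on Mixed, and left Slc38a2 and Slc7a5 called lower on Mixed and no member but Slc38a5 higher. On Mixed that scaling called 3582 of all 16756 genes higher and 3745 lower. For the interaction 1 of 7 members was called (Slc7a5), and it was lower, against 7.36% of all genes called and 2.74% called lower. Mixed against C57 called 2 of 7 in WT, both higher (Slc7a5 and Slc3a2), against 11.3% of all genes called and 6.3% called higher. In Het, where 20.5% of all genes were called and 13.3% higher, the 1 member counted was Slc38a5, and nothing is read from that count, since its Mixed values chose it. Over all 10 members, Het and WT were separate for 4 on C57 (Slc3a2, Slc7a5, Slc7a11 and Slc38a5), all higher, against 15.9% of tested genes that were separate and higher, and on Mixed for Slc7a11, beside Slc38a5, whose separation there chose it, where 17.9% of tested genes were separate and higher. Mixed WT was separate from and above C57 WT for 2 (Slc7a5 and Slc7a11), against 2.91%, and the Het groups were separate for 0 of 10, against 9.85%. Slc7a11, Slc38a1 and Slc38a3 stayed below the filter and are not among the tested genes behind these shares, so the sets differ. The comparisons share the WT or Het samples of a background, so these counts are not independent of each other.

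The wider transporter list gave the setting. Of its 54 genes 30 were tested. In C57 Het 16 were called higher and 1 lower, which is 56.7% against the 38.0% of all genes, and on Mixed 14 were higher and 4 lower, which is 60.0% against 44.1%. Under median-of-ratios scaling the split was 16 higher and 3 lower on C57, and 12 higher and 8 lower on Mixed. Over all 16756 genes the split was then 3521 higher and 3063 lower on C57, and 3582 and 3745 on Mixed. Both Mixed counts of the list include Slc38a5, chosen for its difference there. Without the 10 members, 23 tested genes remained, of which 10 were higher and 1 lower on C57 (47.8%) and 11 higher and 3 lower on Mixed (60.9%). The summed TPM of the list averaged 1173 in WT and 1740 in Het mice on C57, of which Slc38a5 took 1.85% and 8.47%. On Mixed it averaged 1264 and 1764, of which Slc38a5 took 1.52% and 13.1%.

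Outside the members, the largest called differences on C57 were rises. Slc16a10, which lets aromatic amino acids leave or enter cells, rose by 0.86 (SE 0.147; limma adjusted p 0.00015), from a mean of 82.9 to 148.6 TPM. Slc1a4, a carrier of alanine, serine and cysteine, rose by 0.85 (limma adjusted p 0.000328), and Slc7a1, the other widespread arginine carrier, by 0.76 (limma adjusted p 5.44e-05). The vesicular neutral amino acid carrier Slc6a17 rose by 0.73 and the light chain Slc7a7 by 0.72, with limma adjusted p of 0.00122 and 0.00115. The one gene called lower was Slc36a1, a proton-coupled carrier of lysosomes, at -0.31 (limma adjusted p 0.0151); it was named after its value was seen.

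On Mixed, Slc16a10 and Slc7a7 rose again, by 0.78 and 0.75 (limma adjusted p 0.00021 and 0.000581). Slc1a5, a glutamine exchanger, rose by 0.75 (limma adjusted p 0.00757), and Slc43a2, a leucine carrier, by 0.57 (limma adjusted p 0.000168). Slc6a19, a sodium-coupled carrier of neutral amino acids, fell by 0.94 on the log2 scale (SE 0.121; limma adjusted p 2.79e-06), from a mean of 4.94 to 2.09 TPM. On C57 its difference was -0.11 (limma adjusted p 0.478), and the interaction was -0.83 (limma adjusted p 0.0073).

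**Figure D3:**
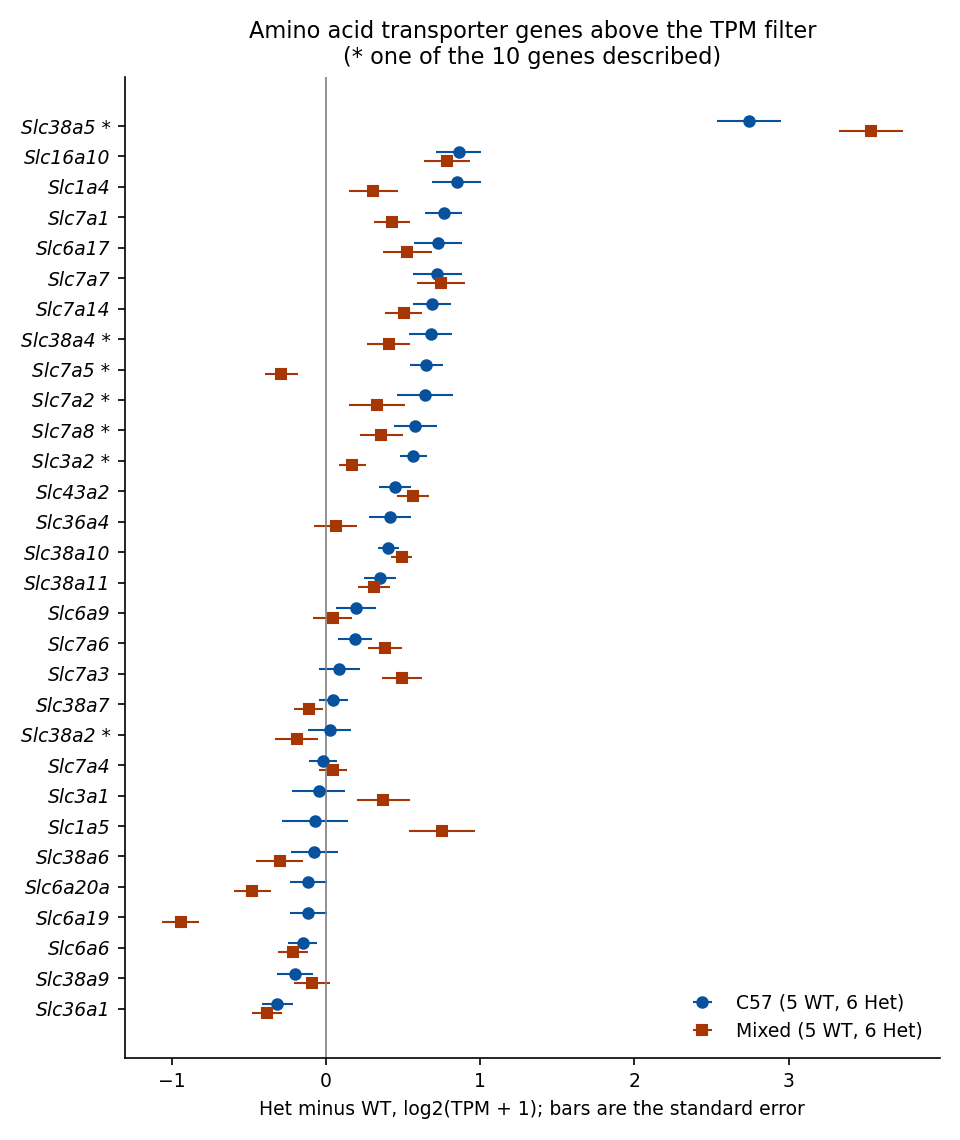
Het minus WT difference in log2(TPM + 1) of the 30 tested transporters, 1 gene per row in order of the C57 difference, with circles for C57, squares for Mixed and bars for the standard error; asterisks mark members. Slc38a5 lies far to the right at 2.74 and 3.53, Slc7a5 lies on opposite sides of zero at 0.65 and -0.29, and the other genes lie within 1 of zero on both backgrounds.

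Several members are known targets of the amino acid response that ATF4 drives, so a list of 27 such genes was read beside them, 25 of them tested. On C57 15 were called higher and 1 lower, and on Mixed 11 higher and 4 lower, against the 38.0% and 44.1% of all genes. The following genes were picked from it after their values were seen. Atf4 RNA itself was not called on either background, at -0.10 (limma adjusted p 0.51) and -0.17 (0.256). Asns, asparagine synthetase, rose by 0.91 on C57 (limma adjusted p 2.52e-05) and differed by 0.19 on Mixed (0.244), with an interaction of -0.72 (0.0248). Atf5 rose by 0.68 on C57 (limma adjusted p 0.00773) and fell by 0.50 on Mixed (0.0359), and its interaction was -1.18 (0.0124). Slc7a5 had the same signs as Atf5 in these comparisons, which rest on the same animals. Of the 25 tested list genes, 3 were called for the interaction, all lower, and 22 were not called. Over all genes 7.36% were called for it and 2.74% called lower. Any link between Slc7a5 and this list was not tested. Phgdh, the first enzyme of serine synthesis, rose on both, by 2.12 and 1.65 (limma adjusted p 4.59e-08 and 5.84e-07).

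The genes whose level followed Slc38a5 most closely were ranked by the root mean square distance between log2(TPM + 1) values, each gene centred on its mean over the 22 animals. Members and provisional symbols (Gm numbers, Rik clones and accession-like names) were left out. Of the rest, the nearest was Cryba2, a crystallin gene, at 0.39, followed by Rasl10b at 0.50, Ngef at 0.55, Oxtr, the oxytocin receptor, at 0.57 and Srbd1 at 0.62. Their differences between Het and WT were 1.93 on C57 and 3.51 on Mixed for Cryba2, and 1.90 and 2.68 for Oxtr. A gene had to share the large step between genotypes to come near, so this describes a common pattern over these animals and carries no test.

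Glucagon RNA (Gcg) separated the genotypes in the same direction as Slc38a5. Its mean was 35280 TPM in WT and 85100 in Het mice on C57, and 19020 and 85230 on Mixed, a rise of 1.37 on C57 and 2.18 on Mixed (limma adjusted p 0.000423 and 1.15e-06). Per 1000 TPM of Gcg, Slc38a5 stood at 0.668 ± 0.278 (SD, n = 5) in C57 WT and 1.74 ± 0.361 (n = 6) in C57 Het, with ranges that overlapped slightly (0.428 to 1.14, and 1.05 to 2.07). On Mixed it stood at 1.02 ± 0.213 (n = 5) in WT and 2.73 ± 0.476 (n = 6) in Het, with no overlap (0.802 to 1.25, and 1.94 to 3.25). Slc38a4 and Slc7a2 were lower in Het than in WT on that measure. Slc38a4 averaged 5.65 in WT and 3.32 in Het on C57, and 11.4 and 3.24 on Mixed. Slc7a2 averaged 4.61 and 2.73 on C57, and 7.81 and 2.18 on Mixed. For both genes the ranges overlapped on C57 and not on Mixed. Their own levels differed by less than Gcg did, and any such gene falls per unit of Gcg, so this is not a separate result.

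With the mean level of the 7 alpha cell markers as a covariate, Slc38a5 still differed by 2.04 on C57 (SE 0.255; limma adjusted p 4.5e-05), and by 2.29 (SE 0.383) on Mixed, where no test is given. Its extra difference on Mixed shrank from 0.79 to 0.25 (SE 0.279). Slc7a5 and Slc3a2 remained called on C57, at 0.63 (adjusted p 0.0246) and 0.54 (adjusted p 0.0221) in that limma fit. The calls for Slc38a4 (0.65, adjusted p 0.0764), Slc7a8 (0.12, adjusted p 0.733) and Slc7a2 (0.06, adjusted p 0.911) on C57 ended in it. On Mixed, where the marker ranges of the genotypes are wide apart, the 6 tested members other than Slc38a5 had limma adjusted p from 0.269 to 0.769, and Slc7a2 and Slc7a8 turned to -0.71 and -0.47. The covariate follows genotype, so part of any genotype difference is taken up by it. Of all 16756 genes, that fit called 531 higher and 552 lower on C57, and 206 and 317 on Mixed.

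Acinar markers, which mark exocrine tissue carried along with islets, were read beside Slc38a5 as well. Among C57 Het animals the one with the highest Slc38a5 level, 204.4 TPM, had the lowest acinar sum, 246.4 TPM, within the C57 WT range of 204.2 to 382.9. The animal with the highest acinar sum, 1622 TPM, had 113.8 TPM of Slc38a5. In Mixed Het the lowest levels of both fell on 1 animal, with 178.5 TPM of Slc38a5 and an acinar sum of 604.8, and the highest acinar sum, 1162 TPM, went with 249.9 TPM of Slc38a5. In a fit with the acinar score added, the difference of Slc38a5 was 2.95 on C57 (SE 0.242; limma adjusted p 1.11e-07) and 3.67 (SE 0.221) on Mixed.

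**Figure D4:**
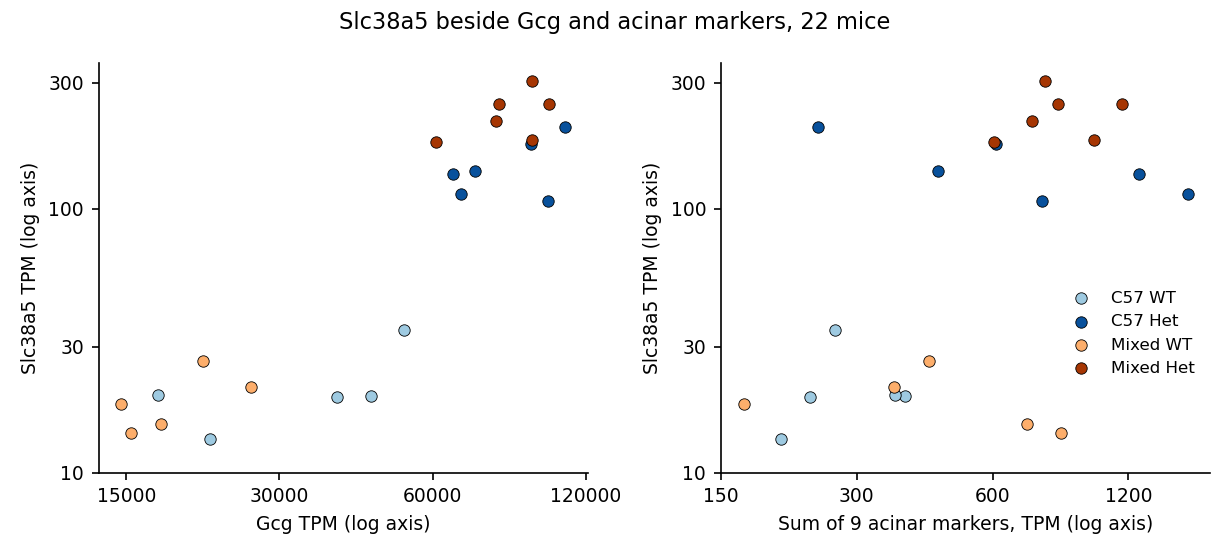
Slc38a5 TPM in each of the 22 mice against Gcg TPM and against the summed TPM of 9 acinar markers, all on log axes, coloured by group. The Het animals lie above 100 TPM of Slc38a5 and the WT animals below 35, at separate Gcg levels (left) but at overlapping acinar levels (right).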

How the data were processed

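Islet RNA of 22 mice was sequenced as poly(A)-selected libraries, per the labels' protocols. STAR 2.7.10b, MultiQC 1.7 and the build mm39 are named per the submitters' processing notes; the counting tool and annotation are not given in the sources used here. The authors deposited 1 table of TPM, each column summing to 1000000 per the file headers and values, with 57010 gene rows. TPM divides by a total, so a change in very abundant genes moves the others, and it keeps no depth.

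From these values, log2(TPM + 1) was fitted with limma 3.58.1 in R 4.3.3 (lmFit, eBayes with trend) as 4 group means over all 22 samples, for the 16756 genes that reached a TPM of 1 in 5 or more samples. P-values were adjusted by Benjamini-Hochberg over all tested genes (threshold 0.05). Fold changes on this scale understate low genes. Where a symbol was repeated, the row with the highest mean was used. The procedure was tested on simulated data.

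The members and lists were chosen with earlier results of these data known. Named genes were all members, the 5 largest called differences among the other listed transporters in each genotype comparison, the 5 genes nearest to Slc38a5, Mafa, and genes of the ATF4 and marker lists said to be picked after their values were seen. The 5 nearest genes were taken after members and provisional symbols were left out. The alternatives were a pseudocount of 0.1, no filter, a filter at a mean TPM of 5, 3 other scalings (median of ratios, quantile, and a total that leaves out the 13 genes above 1% of any sample), the samples of the comparison alone, acinar or alpha cell scores as covariates, no trend, sample weights, and leaving out each replicate. Replicate numbers follow accession order and only name a sample. Library numbers in the labels run group by group, so library order and group cannot be told apart.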

Additional observations from a re-analysis of the deposited data

Results flagged for a closer look

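Slc7a5 differed in its genotype effect between backgrounds, with an interaction of -0.94 on the log2 scale by limma. Slc6a19, a transporter outside the 10 members, did so as well, with an interaction of -0.83.

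Single animals stood apart in 2 of the 40 member and group combinations examined, where chance gives about 1 in 20. In C57 Het, Slc7a2 was 182.4 TPM in 1 animal, well under the other 5. In Mixed Het, Slc7a11 reached 0.417 TPM in 1 animal, well over the others.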

How the results depend on the processing

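No paired analysis was possible because the labels give no replicate numbers that groups share. Counts of members and of listed transporters that use Mixed samples are taken over sets that include Slc38a5. With the alpha cell score as a covariate, listed transporters fell from 17 to 6 on C57 and from 18 to 2 on Mixed, and members from 6 to 3 and from 4 to 1. Calls over all 16756 genes fell with it too. On C57 they went from 4422 higher and 1940 lower to 531 and 552. On Mixed they went from 5137 higher and 2258 lower to 206 and 317. Members called on Mixed were 2 with quantile normalization and 2 with the Mixed samples alone. For the interaction, listed transporters went from 2 to 1 (mean TPM of at least 5) or 6 (sample weights), and members from 1 to 2 (median-of-ratios scaling, quantile normalization, total without the most abundant genes) or 3 (sample weights). All-gene calls for the interaction went from 774 higher and 459 lower to 702 and 1080 (median-of-ratios scaling) or 1170 and 1458 (sample weights). For Mixed against C57 in Het, listed transporters went from 3 to 5 (no filter), 7 (each of the 3 scalings), 8 (samples of the comparison alone), 6 (alpha cell score) or 11 (sample weights), and members from 1 to 3 (no filter), 2 (the 3 scalings, samples of the comparison alone, alpha cell score) or 4 (sample weights). All-gene calls there went from 2234 higher and 1194 lower to 1915 and 2010 (median-of-ratios scaling) or 3501 and 3071 (sample weights). For Mixed against C57 in WT, listed transporters went from 4 to 7 (median-of-ratios scaling, sample weights) or 1 (samples of the comparison alone), and members from 2 to 1 (samples of the comparison alone). All-gene calls in WT went from 1056 higher and 836 lower to 1348 and 1095 (median-of-ratios scaling) or 442 and 389 (samples of the comparison alone). Of single values, Slc38a2 on C57 turned to -0.069, -0.10 and -0.088 under the 3 scalings, to -0.016 with the acinar score and to -0.14 with the alpha cell score. Slc3a2 for Mixed against C57 in Het (0.0039) turned to -0.042, -0.060 and -0.053 under the 3 scalings and -0.040 with sample weights. With the alpha cell score Slc7a2 and Slc7a8 on Mixed turned to -0.71 and -0.47, and Slc7a8 for Mixed against C57 in WT to 0.22. The causes were not tested.

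Leaving out each replicate gave 16 to 17 listed transporters on C57, 16 to 18 on Mixed, 2 to 4 for the interaction, 1 to 7 for Mixed against C57 in Het and 2 to 6 in WT, and 6 to 6, 2 to 4, 1 to 3, 0 to 1 and 2 to 2 members. The counts moved by over 1.5 times for listed transporters without Mixed WT replicate 5 (4, interaction), C57 WT replicate 5 (7) or C57 Het replicate 4 (1) for Mixed against C57 in Het, and Mixed WT replicate 2 or 4 (2) for Mixed against C57 in WT. For members they did so without Mixed WT replicate 3 or Mixed Het replicate 5 (2, on Mixed), without C57 WT replicate 2 or 4 or Mixed Het replicate 1 or 3 (2) or Mixed WT replicate 5 (3) for the interaction, and without C57 Het replicate 4 (0) for Mixed against C57 in Het. The range was -0.104 to 0.109 for Slc38a2 on C57, -0.041 to 0.045 for Slc3a2 for Mixed against C57 in Het, and -0.21 to 0.0035 for Slc7a8 in WT. Slc38a5 kept 2.04 to 2.95 on C57 over the alternatives and 2.60 to 2.93 without single replicates. Depth is unknown, which limits the low levels of Slc38a1, Slc38a3 and Slc7a11.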
